A study of Rattus norvegicus with 9 samples.

Results

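The potassium and calcium channel subunits described here are the genes whose array name begins with Kcn or with Cacn, apart from control spots. There were 111 such genes of 35561 gene names on the array, 86 named Kcn and 25 named Cacn, and they were measured by 142 probes. Each gene is given by its brightest probe, and the 2 families are reported apart. The rule uses the name of a gene and none of its values.

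The samples were rat cortical neurons, taken from prenatal pups and cultured for 11 to 15 days in Neurobasal with a B27 or an NS21 supplement. All 9 were silenced for 48 h with tetrodotoxin (TTX), which plugs the sodium channels that carry the spike. The group called TTX (3 arrays) was collected in the toxin, W15 (3 arrays) 15 min after 3 washes with fresh medium and W45 (3 arrays) 45 min after them. The labels do not say whether the 3 samples of a group came from separate cultures, so every p-value measures only the spread between these samples. Nor is there an untreated culture or a mock-washed culture among the groups compared, and the washing itself cannot be told apart from the return of firing. The RNA is of whole cultures, in which fewer cells of a type and less RNA per cell cannot be told apart.

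Potassium channels let potassium out of the cell and so set the resting potential, repolarise the spike and limit repetitive firing. Voltage-gated calcium channels open during the spike and admit calcium, which drives transmitter release and is a main signal from neuronal activity to transcription. Both kinds are built from a pore-forming alpha subunit and auxiliary subunits that change its gating and its delivery to the membrane. A special class of potassium alpha subunits, encoded by the Kcnf, Kcng, Kcns and Kcnv genes, makes no current alone but joins other voltage-gated subunits, such as Kcnb2, and modifies their channel.

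Values are log2 signal relative to the 75th percentile of the same array, so 0 is the 75th percentile and a gene at −3 lies well below it. Levels are compared only within a gene, since different probes bind with different strength. A gene was tested where at least 1 group had its probe well above background on each of 3 arrays. Of the Kcn genes 71 of 86 (82.6%) passed, and of the Cacn genes 23 of 25 (92%). In all, 69 Kcn and 22 Cacn genes stood above background on all 9 arrays, and 9 Kcn genes and 1 Cacn gene on none. Among the roles, all 10 of the 2-pore leak channels, all 7 of the calcium- or sodium-activated channels, all 4 calcium channel beta subunits and all 3 alpha2delta subunits were tested. The inward rectifiers had the lowest share, 9 of 15 (60%), and their untested members were Kcnj1, Kcnj2, Kcnj5, Kcnj8, Kcnj13 and Kcnj15. The other untested genes were Kcna7, Kcne1, Kcne3, Kcne4, Kcnh5, Kcnh8, Kcnmb1, Kcnq1 and Kcnv2, and the calcium channel genes Cacna1f, the L-type pore of the retina, and Cacng5.

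All 10 neuronal markers in the list used were measured, and none of the 37 cell type markers tested, of 42 listed, passed the test in any comparison. The level summed over the neuronal markers was 108 to 134 times the 75th percentile on the TTX arrays, 118 to 141 on W15 and 105 to 135 on W45. The 7 astrocyte markers summed to 72.2 to 96.9 and the 9 oligodendrocyte lineage markers to 50.6 to 64.5 over all arrays. The 4 tested microglial markers of 7 listed came to 0.215 to 0.399, with Aif1 and Cx3cr1 above background on no array. The 7 tested markers of vessel, fibroblast or muscle cells summed to 1.33 to 1.4 on TTX, 1.46 to 1.64 on W15 and 1.42 to 1.68 on W45. These sums are set against each other between groups and not between cell types. The part of other cells in the channel values was not tested. Activity-induced genes served as a check of the group labels. Fos, an activity-induced transcription factor gene, differed from TTX by a log2 difference of 4.87 ± 0.34 (SE) at 15 min (limma adjusted p = 0.00176) and 6.61 ± 0.34 at 45 min (2.12e-05). Arc, which encodes a synaptic regulator, differed by 1.69 ± 0.25 (adjusted p = 0.187) and 5.32 ± 0.25 (1.07e-05).

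Against that response no channel gene passed the test. With limma and Benjamini-Hochberg adjustment over all 25808 genes tested, 0 of 71 Kcn genes and 0 of 23 Cacn genes had an adjusted p under 0.05 in any of the 3 comparisons. Among all genes tested, 0.0232% were called at 15 min against TTX, 0.201% at 45 min against TTX and 0.132% at 45 against 15 min, so for families of this size a count of 0 is near the background share. At an unadjusted p under 0.05 there were 2 Kcn genes and 1 Cacn gene at 15 min, 5 and 1 at 45 min, and 4 and 0 between the 2 washed groups. The share of all genes at that level was 3.49%, 6.44% and 6.67%. The exact permutation test of 3 against 3 arrays, two-sided, cannot give a p under 0.1 and was not used for single genes.

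What stood out among the potassium channel genes was a pair of modulatory subunits at 45 min, Kcnf1 and Kcns2. Kcnf1 encodes one of the silent alpha subunits that modify the channels they join. Its level was −3.80, −3.54 and −3.52 on the TTX arrays, −3.34, −2.85 and −3.44 on W15, and −1.66, −2.23 and −2.47 on W45. The 3 groups did not overlap: every W15 array lay above every TTX array, and every W45 array above every W15 array. The W45 level exceeded that of TTX by a log2 difference of 1.50 ± 0.23 (SE, 3 arrays a group), a 2.83-fold difference with a 95% interval of 1.97 to 4.08. This was the lowest p of any channel gene (unadjusted p = 0.000108), and its limma adjusted p of 0.0515 missed the threshold of 0.05. At 15 min the difference from TTX was 0.41 ± 0.23 (limma adjusted p = 0.992), and between 15 and 45 min it was 1.09 ± 0.23 (0.276). The difference from TTX at 45 min was above 0 under all 21 alternative settings, and limma's adjusted p was under 0.05 in 5 of the 20 that allow a test. Those were a filter for probes above background on all arrays (0.0384), a trended and robust spread (0.0285), the slide as a random block (0.0449), and the fits without W45 replicate 1 (log2 difference 1.27, adjusted p = 0.0424) and without W45 replicate 3 (1.68, 0.0324). Over all genes the main fit called 47 higher and 5 lower at 45 min. Without W45 replicate 1 it was 70 and 93, and without W45 replicate 3 it was 50 and 29. More genes of the whole array thus passed in these fits, not Kcnf1 alone. The other settings named called 46 to 51 higher and 6 lower. The random block estimated a correlation within slides of −0.06, so that fit made no allowance for a shift shared by the arrays of a slide. The smallest value came with normexp background correction, which gave 1.02 (adjusted p = 0.946) from TTX and 0.41 between the washed groups. The TTX and W45 samples may pair by replicate number, and a limma fit blocked on it (replicate block) gave an adjusted p of 0.126. The TTX and W45 samples lay mostly on different slides: with slide as a fixed block the value was 1.79 (adjusted p = 0.683), on slide 1 alone, with 1 array a group and no test, it was 2.14, and on slide 3, which holds 2 arrays each of W15 and W45, these 2 groups differed by 0.74 (0.586).

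**Figure D1:**
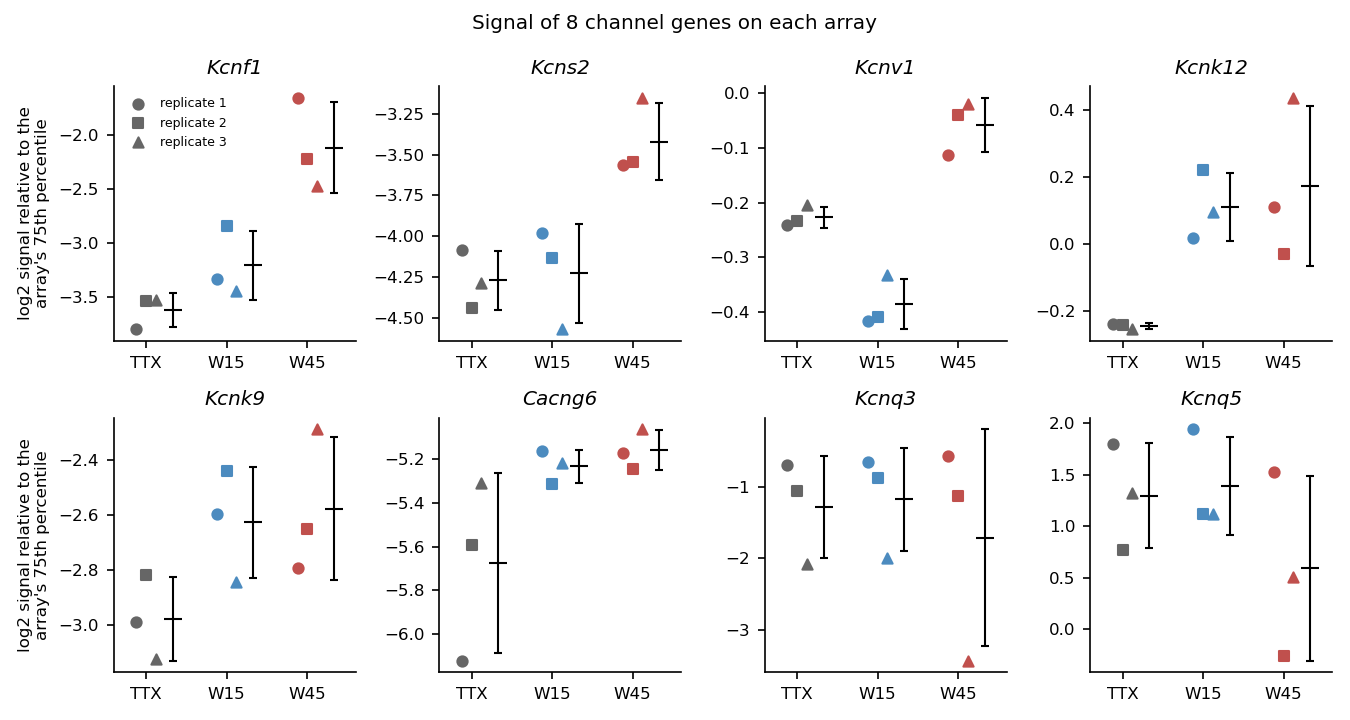
Log2 signal, minus the 75th percentile of the array, for 8 channel genes on 3 arrays in each of TTX, W15 and W45; the marker shape gives the replicate number, and the bar beside each group is the mean ± SD. Kcnf1 and Kcns2 are highest on the 3 W45 arrays, whereas the Kcnq3 arrays are ordered by replicate number in every group.

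The array reads Kcnf1 with 1 probe, which the files place at chr6:40914212-40914271 of the rat build rn3, minus strand. No annotation of that build was used here, so whether the probe lies in coding or untranslated sequence is not given. The first 30 of its 60 bases are shown to identify the stretch that the values above refer to.
Kcnf1 probe: attaacaactttgtcaggtactacaacaaa
The 250 bases before the Kcnf1 start in RefSeq (GRCr8, a later build than that of the probes, chr6:45693707-45693956, minus strand) are shown because it was the channel gene with the largest difference. They held 59.6% G and C, and none of the searched motifs of activity-responsive factors: the cAMP response element TGACGTCA, the shorter TGACG, the AP-1 site TGACTCA, the Egr site GCGTGGGCG, the CArG box and the MEF2 box, each read on both strands. No letters are therefore in capitals, and nothing about the factors follows from this window.
Kcnf1 upstream: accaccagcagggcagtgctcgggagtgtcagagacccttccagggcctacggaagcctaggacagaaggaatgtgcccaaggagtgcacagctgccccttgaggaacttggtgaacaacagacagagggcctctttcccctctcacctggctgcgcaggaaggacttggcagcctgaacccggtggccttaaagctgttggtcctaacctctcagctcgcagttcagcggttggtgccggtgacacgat

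Kcns2, the other gene of the pair, encodes a silent subunit as well. Its level was −4.08, −4.44 and −4.29 on TTX, −3.98, −4.13 and −4.57 on W15, and −3.56, −3.54 and −3.15 on W45. TTX and W15 overlapped, and every W45 array was above both. The difference from TTX was 0.04 ± 0.19 (SE) at 15 min and 0.85 ± 0.19 at 45 min, 1.81-fold with a 95% interval of 1.34 to 2.44 (unadjusted p = 0.00156, limma adjusted p = 0.307). Between 15 and 45 min it was 0.81 ± 0.19 (limma adjusted p = 0.409), and no alternative brought either comparison past the threshold. With slide as a fixed block the difference from TTX was 0.42, and with normexp background correction it was 0.46 and that between the washed groups −0.02.

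Kcnv1, a silent subunit found mainly in brain, had small differences with little spread. Its level was −0.24, −0.23 and −0.21 on TTX, −0.42, −0.41 and −0.33 on W15, and −0.11, −0.04 and −0.02 on W45. All 3 W15 arrays lay below, and all 3 W45 arrays above, those of TTX. The differences were −0.16 ± 0.11 (SE) at 15 min, 0.17 ± 0.11 at 45 min, and 0.33 ± 0.11 between the washed groups (unadjusted p = 0.0132, limma adjusted p = 0.699). With normexp background correction the difference between the washed groups was 0.03 and the 45 min difference from TTX −0.04, and without scaling between arrays the latter was −0.09.

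Of the 9 modulatory subunits tested, 3 thus had an unadjusted p under 0.05 for W45 against W15, each of them higher, where 2.68% of all genes were higher at that level. The class was singled out after these values were seen, so the count is no test of it. With normexp background correction the values of Kcns2 and Kcnv1 among these 3 were near 0, as given above. The remaining 6 were Kcng1, Kcng2, Kcng3, Kcng4, Kcns1 and Kcns3, and for W45 against W15 they lay between −0.29 (Kcng4) and 0.09 (Kcng3). In that comparison 5 of the 9 were below 0 and the median over all 9 was −0.14, against −0.002 over all genes tested. At 45 min from TTX the 6 lay between −0.11 (Kcng1) and 0.07 (Kcng4), and the median over all 9 was 0.04, against 0.05 over all genes. Kcng4 was among the 5 Kcn genes with the largest positive difference at 15 min, 0.36 ± 0.35 (SE), with an error as large as the difference. Kcnb2, a delayed rectifier pore that these subunits can join, had overlapping arrays in all 3 comparisons and differed by 0.17 ± 0.19 at 45 min from TTX.

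**Figure D2:**
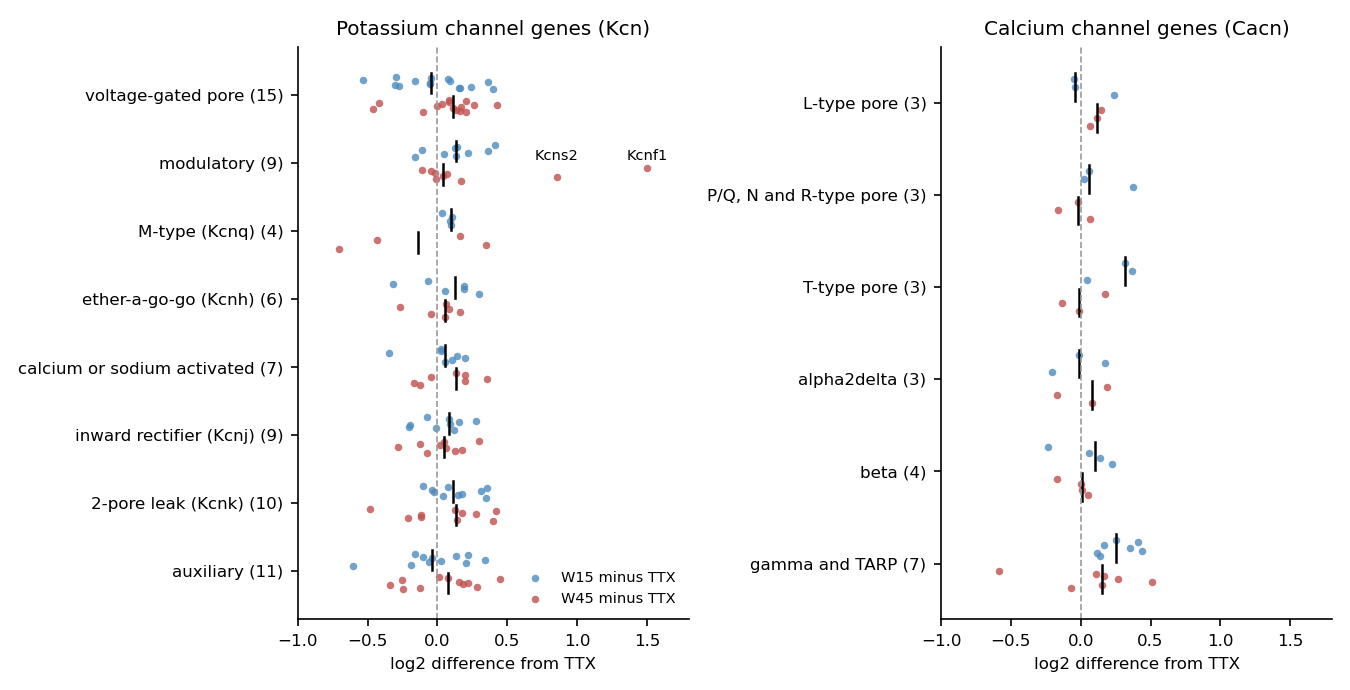
Log2 difference from TTX of each tested channel gene at 15 min (blue) and 45 min (red), by role of the subunit, with the number of genes in parentheses and a black line at each median. Apart from Kcnf1 and Kcns2 at 45 min, every gene lies between −0.71 and 0.51.

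Among the voltage-gated pores, 15 of 16 were tested and none had an unadjusted p under 0.05 at 45 min. The median difference from TTX was −0.05 at 15 min and 0.11 at 45 min. Kcnd3, a pore of the fast-inactivating A-type current of dendrites, had the lowest p at 15 min. Its level was −2.69, −2.61 and −2.61 on TTX, −2.29, −2.19 and −2.24 on W15 and −2.17, −2.78 and −2.36 on W45. W15 lay above TTX on all arrays and W45 spanned both, with differences of 0.40 ± 0.16 (SE, unadjusted p = 0.0341, limma adjusted p = 0.992) and 0.20 ± 0.16. The other probe of Kcnd3, which passed the filter only through W45, gave 0.04 at 15 min. Kcna6, a Shaker-type pore, also had W15 arrays above those of TTX (0.36 ± 0.19). The pore genes with the lowest differences at 15 min were Kcna3 (−0.53 ± 0.24) and Kcnc1 (−0.30 ± 0.32), and the latter, a pore of fast-spiking neurons, rested on W15 replicate 3 at −3.47, while the other 2 arrays were at −2.68 and −1.92 and the difference without it was 0.09. The mean of Kcna3 at 45 min was −0.42 ± 0.24 from that of TTX with overlapping arrays, and Kcna5 was above it by 0.43 ± 0.23, again overlapping. The other probe of Kcna3 gave −0.07 at 15 min and −0.04 at 45 min.

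Kcna1, an axonal pore that sets spike threshold, stood at 1.03, 0.96 and 1.14 on TTX, 0.68, 0.43 and 1.13 on W15 and 1.04, 1.15 and 1.17 on W45, and its largest difference was 0.37 ± 0.18 (SE) between the washed groups. The other probe of Kcna1 had the opposite sign there, −0.11. At 15 min from TTX the probe used gave −0.29 and the other 0.30. Kcnc2, a pore of fast-spiking interneurons, was well above background on all 3 TTX arrays, on 1 W15 array and on no W45 array. The signal on TTX was at least 1.09-fold higher than the background limit allows on W45, and its measured levels were −6.66, −6.84 and −6.85 on TTX against −7.73, −6.51 and −7.51 on W45. It passed the filter only through TTX, which favours a lower level in the other groups. TTX and W45 overlapped, with W45 replicate 2 above all 3 TTX arrays. The W15 arrays, at −7.16, −7.13 and −6.89, all lay below those of TTX. With normexp background correction the difference from TTX was 0.67 at 15 min and 0.14 at 45 min. The pores Kcna2, Kcna4 and Kcnd2 had overlapping arrays in all comparisons.

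The M-type channels, to which Kcnq3 and Kcnq5 contribute and which brake repetitive firing, had no gene past the unadjusted threshold, and their median SE of 0.36 was the highest of any role. Kcnq3 was at −0.70, −1.06 and −2.08 on TTX replicates 1 to 3, at −0.65, −0.88 and −1.99 on W15 and at −0.57, −1.13 and −3.44 on W45. Replicate 3 was the lowest and replicate 1 the highest in each group, and 87% of the variance within groups went with the replicate number, against a median of 43.2% over the Kcn genes tested. The difference from TTX at 45 min was −0.43 ± 0.70 (SE), a fold of 0.247 to 2.22 at 95%, and without W45 replicate 3 it was 0.43. Kcnq5 had levels of 1.79, 0.77 and 1.32 on TTX, 1.94, 1.12 and 1.12 on W15 and 1.53, −0.26 and 0.51 on W45. Replicate 1 was the highest in each group, and the difference at 45 min was −0.71 ± 0.44 from TTX and −0.80 ± 0.44 from W15, the most negative Kcn value in both comparisons (limma adjusted p = 0.825 and 0.787). In the fit blocked on replicate number the difference from TTX was −0.71 ± 0.20 (SE, limma adjusted p = 0.502), and W45 lay below TTX in all 3 same-numbered pairs. Without W45 replicate 2 the difference from TTX was −0.28. The labels do not say what the replicate number stands for.

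Of the ether-a-go-go channels 6 of 8 were tested, and they lay between −0.27 and 0.16 at 45 min. Kcnh2, whose channel gives a slow repolarising current, was −0.32 ± 0.17 (SE) from TTX at 15 min with overlapping arrays. The 7 calcium- and sodium-activated channels lay between −0.17 and 0.36 at 45 min. Kcnma1, the pore of the large-conductance calcium-activated channel that shortens spikes, differed by 0.02 ± 0.17 at 15 min and 0.13 ± 0.17 at 45 min. The other probe of Kcnma1 gave 0.47 at 15 min and 0.23 at 45 min. Kcnn2, a pore of the small-conductance channel behind the afterhyperpolarisation, differed by −0.35 ± 0.26 at 15 min, where W15 replicate 1 was at −2.64 and the other 8 arrays between −1.82 and −1.44.

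Among the 9 inward rectifiers tested, Kcnj16, a subunit that joins Kcnj10, had the lowest p. Its levels were −4.71, −4.25 and −4.38 on TTX, −4.43, −4.35 and −4.30 on W15 and −4.85, −4.77 and −4.57 on W45. The arrays of the washed groups did not overlap, and the difference was −0.38 ± 0.15 (SE, unadjusted p = 0.033, limma adjusted p = 0.742). Kcnj10, the main potassium-buffering rectifier of astrocytes, had W45 arrays above those of TTX (0.30 ± 0.19). Its probe was well above background on 2 TTX, 2 W15 and 3 W45 arrays, so it was tested only through W45 and the filter favours that direction. Kcnj12 had W15 arrays above those of TTX (0.27 ± 0.20) and was −0.40 ± 0.20 at 45 against 15 min, with overlapping arrays. The pores of the G-protein-gated channels that mediate slow inhibition, Kcnj3, Kcnj6 and Kcnj9, lay between −0.19 and 0.13 of TTX at both times by their brightest probes. Another probe of Kcnj3 had W15 arrays above those of TTX (0.58 ± 0.32, limma adjusted p over all probes 0.973). Kcnj4 differed by 0.38 ± 0.31 between the washed groups, and W15 replicate 3 alone was low (−1.43, against −0.44 to −0.06 on the other 8 arrays), without which the difference was −0.05.

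All 10 of the 2-pore leak channels, which set the resting potential, were above background on every array. Kcnk12 encodes a subunit of this class that is mostly held inside the cell. Its level was −0.24, −0.24 and −0.25 on TTX, 0.02, 0.22 and 0.09 on W15 and 0.11, −0.03 and 0.44 on W45. Every washed array lay above every TTX array, by a mean of 0.35 ± 0.14 (SE, unadjusted p = 0.0347, limma adjusted p = 0.992) and 0.42 ± 0.14 (0.017 and 0.682). Kcnk9, an acid-sensitive leak channel, was at −2.99, −2.82 and −3.12 on TTX, −2.60, −2.44 and −2.84 on W15 and −2.79, −2.65 and −2.29 on W45. W45 did not overlap TTX and differed by 0.40 ± 0.17 (unadjusted p = 0.0457, limma adjusted p = 0.764), whereas W15 overlapped it (0.35 ± 0.17). Kcnk1 had the most negative value of the class at 45 min, −0.48 ± 0.28, and W45 replicate 3 was at −1.77 against −0.83 and −0.45 on the other 2 arrays of its group.

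Among the 11 auxiliary potassium channel genes tested, Kcnmb2, a beta subunit that inactivates the large-conductance calcium-activated channel, had the lowest p at 45 min. It was at −2.11, −2.06 and −2.20 on TTX, −2.33, −2.21 and −2.02 on W15 and −2.56, −2.23 and −2.61 on W45. W45 lay below TTX on all arrays, by −0.34 ± 0.15 (SE, unadjusted p = 0.0439, limma adjusted p = 0.764). Kcnmb4, the neuronal beta subunit of the same channel, had W15 arrays below those of TTX (−0.19 ± 0.17). Kcnip4, which binds the A-type pores, had W45 arrays above both other groups, by 0.18 ± 0.11 and 0.16 ± 0.11. Kcnab3 had the largest positive difference at 45 min, 0.45 ± 0.31, and Kcnrg, a suppressor of pore assembly, the most negative at 15 min, −0.61 ± 0.42, each with overlapping arrays. Kcnab3 was at −5.49, −4.13 and −4.87 on W45, and without replicate 2 of that group the difference was 0.10. By their brightest probes Kcnab1 and Kcnip1 differed by at most 0.16 from TTX at either time. The other probe of Kcnab1 gave −0.40 at 15 min and −0.51 at 45 min.

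**Figure D3:**
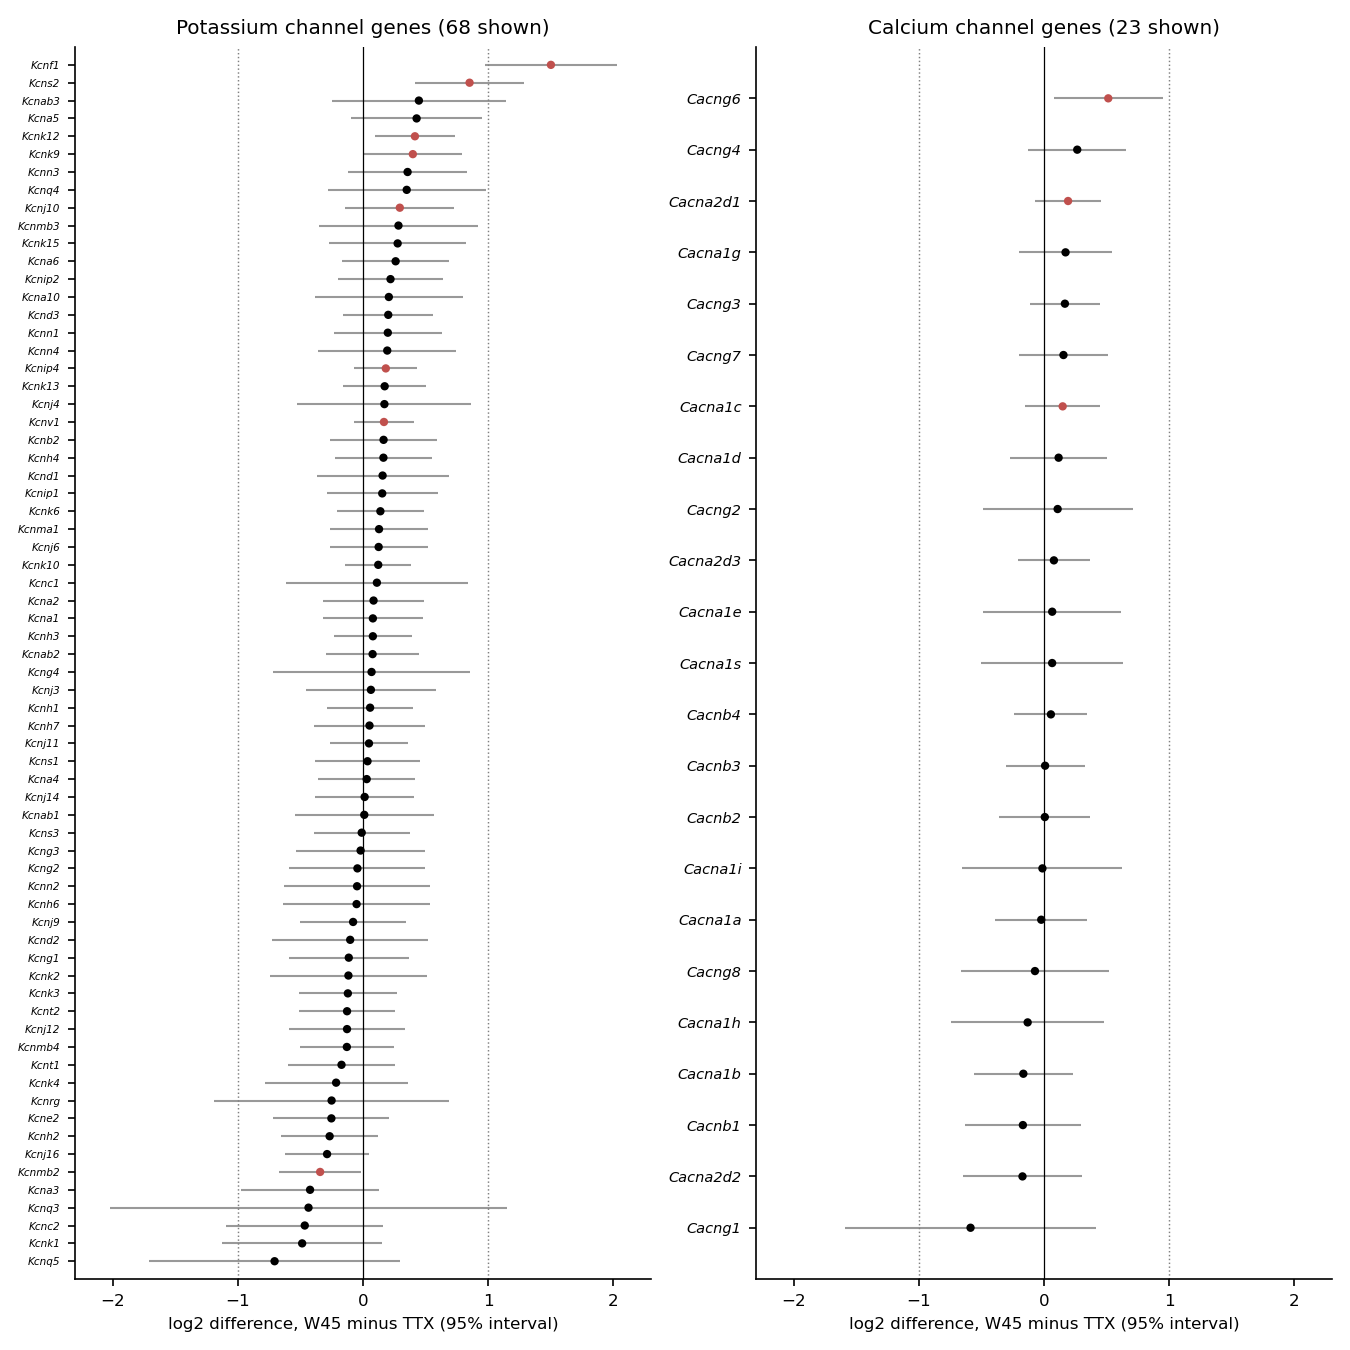
Log2 difference between W45 and TTX for 68 of the 71 Kcn genes tested and all 23 Cacn genes, with the 95% interval from the fit over 9 arrays; red points are genes whose W45 and TTX arrays do not overlap, and dotted lines mark 2-fold. The intervals of 60 of the Kcn genes shown and 22 Cacn genes lie between the dotted lines.

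As a family, the Kcn genes had a median log2 difference of 0.08 at 15 min, 0.08 at 45 min and 0.04 between the washed groups, beside 0.06, 0.05 and −0.002 over all genes tested. Values above 0 were found for 45 of 71 genes at 15 min, 45 at 45 min and 38 between the washed groups, or 63.4%, 63.4% and 53.5%, where all genes gave 61.9%, 60% and 49.6%. Arrays of the 2 groups did not overlap for 8 Kcn genes at 15 min (5 higher and 3 lower, 11.3%), 8 at 45 min (7 higher and 1 lower, 11.3%) and 5 between the washed groups (4 higher and 1 lower, 7.04%). The share of all genes was 14% (10.3% higher and 3.7% lower), 11.7% (8.36% and 3.38%) and 8.11% (3.93% and 4.18%), so the Kcn counts lay near or under the background. The precision was that of the array as a whole: the median SE was 0.19 for the Kcn genes and for all genes. The 95% interval stayed within 2-fold in both directions for 65, 63 and 61 of the 71 Kcn genes in the 3 comparisons. The family median depends on the scaling, and without scaling between arrays it was −0.13 at 15 min and −0.19 at 45 min, when the median of all genes was −0.15 and −0.21.

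The calcium channel pores showed no gene past the unadjusted threshold in any comparison. Cacna1c, the L-type pore that couples activity to transcription, was at −0.62, −0.77 and −0.57 on TTX, −0.60, −0.91 and −0.59 on W15 and −0.56, −0.47 and −0.49 on W45. W45 lay above both other groups, but by only 0.15 ± 0.13 (SE) and 0.19 ± 0.13 (limma adjusted p = 0.895 and 0.826). Cacna1d, the other neuronal L-type pore, differed by −0.04 ± 0.17 and 0.12 ± 0.17 from TTX. Its 3 probes spanned −0.04 to 0.31 at 15 min and 0.08 to 0.24 at 45 min. The pores of the presynaptic P/Q-type and N-type channels, Cacna1a and Cacna1b, differed from TTX by 0.06 and 0.02 at 15 min and −0.02 and −0.17 at 45 min, with errors of 0.16 and 0.18. The R-type pore Cacna1e differed by 0.37 ± 0.25 at 15 min and 0.06 ± 0.25 at 45 min. The 4 probes of Cacna1e spanned −0.02 to 0.37 at 15 min and −0.09 to 0.23 at 45 min.

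Of the low-voltage-activated T-type pores, Cacna1g was at −1.91, −1.75 and −1.66 on TTX, −1.55, −1.21 and −1.59 on W15 and −1.80, −1.66 and −1.35 on W45. W15 lay above TTX on all arrays, by 0.32 ± 0.16 (SE, limma adjusted p = 0.992), and W45 overlapped it. Cacna1h differed by 0.37 ± 0.27 at 15 min and by −0.50 ± 0.27 between the washed groups, where W45 replicate 3 was at −1.42 and its other 2 arrays at −0.29 and −0.62. By its brightest probe Cacna1i differed by at most 0.06 in any comparison. Its other probe gave 0.24 at 15 min and −0.18 at 45 min from TTX, and −0.43 between the washed groups.

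The alpha2delta subunits, which bring pores to the membrane and bind gabapentinoid drugs, had no gene past the unadjusted threshold. Cacna2d1 was at 5.35, 5.43 and 5.41 on TTX, 5.40, 5.35 and 5.40 on W15 and 5.44, 5.63 and 5.69 on W45. W45 lay above both groups on all arrays, by 0.19 ± 0.12 (SE) and 0.20 ± 0.12. Cacna2d3 also had W45 arrays above those of W15 (0.29 ± 0.13, unadjusted p = 0.0505, limma adjusted p = 0.749), and against TTX it was −0.21 ± 0.13 at 15 min and 0.08 ± 0.13 at 45 min. Cacna2d2 differed by −0.17 ± 0.21 at 45 min. Among the beta subunits, which hold the pore at the membrane, Cacnb4 had W15 arrays above those of TTX (0.22 ± 0.13), Cacnb1 had the most negative value at 15 min (−0.24 ± 0.21) with overlapping arrays, and Cacnb2 and Cacnb3 differed by 0.06 and 0.14 at 15 min and by 0.01 each at 45 min. At 15 min the other probe of Cacnb4 gave 0.02 and that of Cacnb2 −0.22.

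The gamma class holds subunits of muscle calcium channels and the transmembrane AMPA receptor regulatory proteins (TARPs), which escort glutamate receptors rather than calcium channels. All 7 tested genes of the class had a difference above 0 at 15 min, with a median of 0.26, and 5 of 7 at 45 min, with a median of 0.15. Of all genes 61.9% and 60% were above 0, with medians of 0.06 and 0.05. TTX replicate 1 was the lowest TTX array for each tested gene of the class except Cacng4. Without that array the differences of Cacng1, Cacng7 and Cacng8 at 15 min lay slightly below 0. Between the washed groups 5 of the 7 were below 0, with a median of −0.09. Cacng6, a relative of the muscle gamma subunit, had the lowest p of the Cacn genes at both times. Its level was −6.12, −5.59 and −5.31 on TTX, −5.17, −5.31 and −5.22 on W15 and −5.17, −5.25 and −5.07 on W45. W45 lay above TTX on all arrays (0.51 ± 0.19 SE, unadjusted p = 0.0257, limma adjusted p = 0.737), and W15 overlapped it at its lowest array (0.44 ± 0.19, 0.0478). Over the 9 fits without 1 array the Cacng6 difference was 0.22 to 0.62 at 15 min and 0.29 to 0.69 at 45 min. Cacng4, a TARP, had W15 arrays above those of TTX (0.35 ± 0.17) and overlapping arrays at 45 min (0.26 ± 0.17). Cacng2, the TARP stargazin, differed by 0.41 ± 0.27 at 15 min and 0.11 ± 0.27 at 45 min, and Cacng3 and Cacng8 by 0.17 and 0.14 at 15 min. Cacng1, a muscle subunit near the background limit, had the most negative value of the family in both comparisons of W45. W45 was −0.59 ± 0.44 from TTX and −0.84 ± 0.44 from W15 (limma adjusted p = 0.776), with overlapping arrays, from −6.75 to −5.63 on W45, −6.16 to −5.09 on TTX and −6.23 to −4.60 on W15.

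Over the whole Cacn family the median log2 difference was 0.14 at 15 min, 0.06 at 45 min and −0.09 between the washed groups. Values lay above 0 for 18 of 23 genes at 15 min, 15 at 45 min and 7 between the washed groups (78.3%, 65.2% and 30.4%, against 61.9%, 60% and 49.6% of all genes). By array, the median distance from a gene's TTX mean was −0.14, 0.04 and 0.09 on TTX replicates 1 to 3. On W15 it was 0.15, 0.22 and 0.08, so TTX replicate 1 stood apart from the other TTX arrays. Over the 9 fits without 1 array the family median at 15 min was 0.08 to 0.23. Arrays did not overlap for 3 genes in each comparison (13%), where the share of all genes in either direction was 14%, 11.7% and 8.11%. All of these Cacn genes were higher in the later group, and the share of all genes higher without overlap was 10.3%, 8.36% and 3.93%. Leaving out scaling between arrays gave medians of −0.07 at 15 min and −0.20 at 45 min. The 95% interval stayed within 2-fold for 21, 22 and 21 of the 23 genes, and the median SE was 0.17.

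**Figure D4:**
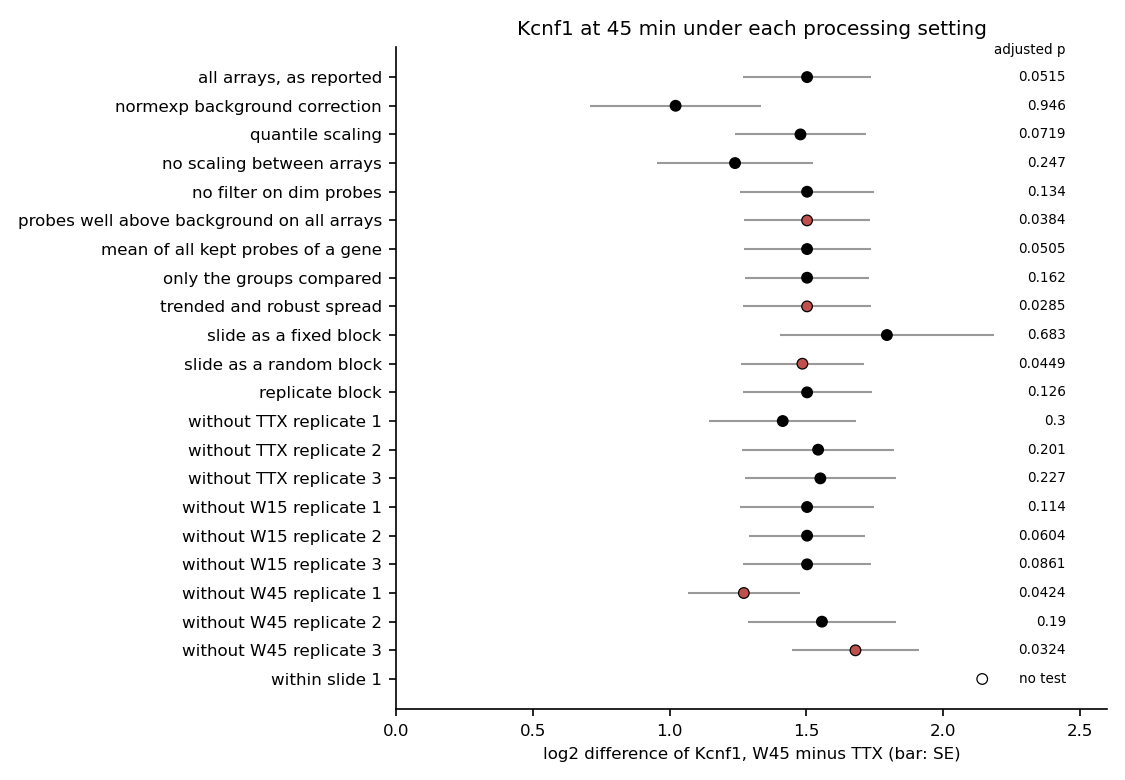
Log2 difference of Kcnf1 between W45 and TTX, with its SE, as reported and under 21 alternative settings, with limma's adjusted p at the right; red points have an adjusted p under 0.05, and the open point, from 1 array a group, has no test. All points lie between 1.02 and 2.14, and 5 are red.

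Probes to the same gene did not always give the same difference. Of the 142 probes 118 passed the filter, and 17 genes had more than 1 of them. The probes of a gene all had the same sign for 9 of 17 genes at 15 min, 9 at 45 min and 5 between the washed groups, and the median range between probes of a gene was 0.29, 0.32 and 0.32. For W45 against TTX the probes of Kcnq5 gave −0.71 ± 0.44 (SE) and 0.12 ± 0.17, those of Kcnab1 0.01 ± 0.25 and −0.51 ± 0.23, and those of Cacna1b −0.17 ± 0.18 and 0.47 ± 0.24. The 4 probes named Kcnj3 ranged from −0.28 to 0.40 at 45 min and from −0.19 to 0.58 at 15 min. The files place the probe used at chr8:70766491-70766550 (plus strand) and another at chr3:36965600-36965659 (minus strand). This range may therefore not be that of a single transcript. The brightest probe of Kcnd3 gave 0.20 ± 0.16 and its other probe 1.05. The latter was well above background on 1 TTX, 2 W15 and 3 W45 arrays and passed the filter only through W45, which favours this direction, so its value is no measure of how far the probes differ. The files place these probes on rn3 as follows, and the first 30 bases of each are shown because the values of 1 gene turn on which of them is read: Kcnd3 used chr3:128828370-128828429 and other chr3:128829784-128829843 (plus strand), and Kcnq5 used chr9:20341161-20341220 and other chr9:20293598-20293657 (minus strand). No annotation of rn3 was used here, so whether these positions lie at the genes named was not checked.
Kcnd3 probe used: cagtcctgattgttcaacacagcaagaaaa
Kcnd3 other probe: gcgaagaatcagttgggttatattgtccaa
Kcnq5 probe used: tgtaggtttagatagtgtccatattggaat
Kcnq5 other probe: atagcagttgtttctgcaaaaactcagggt

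**Figure D5:**
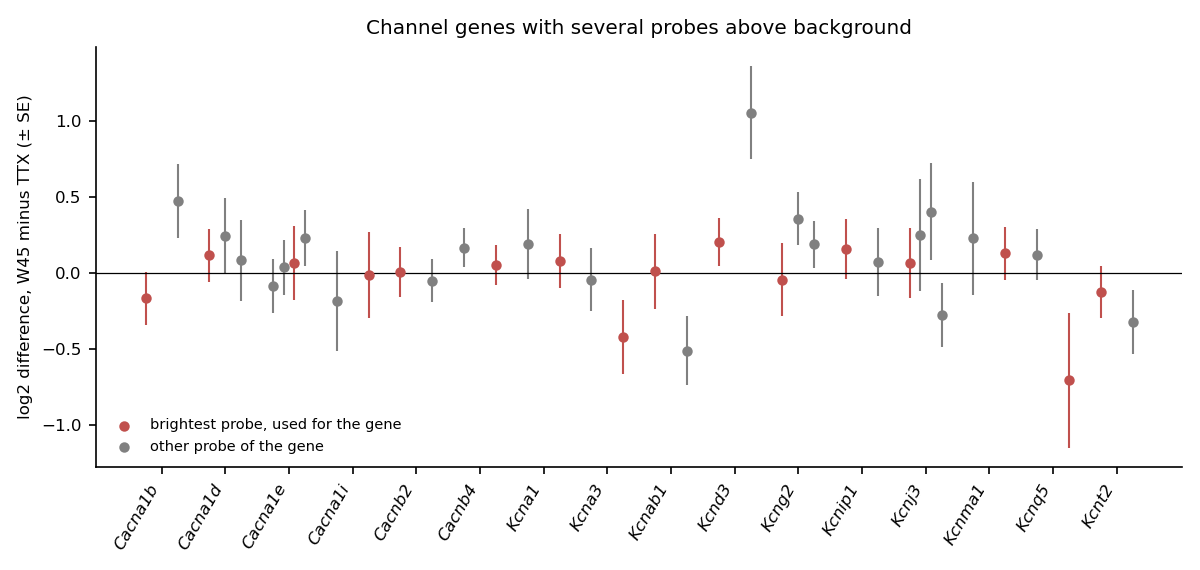
Log2 difference between W45 and TTX, ± SE over 3 arrays a group, for every probe above background of 16 channel genes with more than 1; the brightest probe, used for the gene, is red and the others are grey. The grey Kcnd3 probe, which passed the filter only through W45, is at 1.05 and the red one at 0.20, and the Kcnq5 probes lie on both sides of 0.

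Sequence upstream of the members was compared with that of all RefSeq promoters in the table given (GRCr8), over 250 bases before the start. Of the 111 members 73 had an entry, 56 Kcn and 17 Cacn. The median content of G and C was 60.4% for Kcn and 64.8% for Cacn promoters against 51.2% over 33469 promoters, and the GC box GGGCGG was found in 48.2% and 64.7% against 30.5%, on either strand. The TATA box TATAAA occurred in 3.57%, 11.8% and 12.9%. For the sites of activity-responsive factors, the full cAMP response element TGACGTCA was in 0 of 56 Kcn and 0 of 17 Cacn promoters and in 1.59% of all, and the shorter TGACG, which the full element contains, in 21.4%, 17.6% and 18.2%. The AP-1 site TGACTCA occurred in 1 Kcn promoter (1.79%), against 4.05% of all. Matches of this kind describe the letters of the window and mark no binding site.

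Other genes that handle the same ions were read from 5 lists of 48 genes, of which 45 were tested: the HCN channels, inhibitors and partners of calcium channels, calcium sensors and pumps, calcium stores, and anchors of channels. In limma, 0 of 45 passed the threshold in any comparison, and arrays lay without overlap above TTX for 4 genes at 15 min (8.89%) and 5 at 45 min (11.1%), where 10.3% and 8.36% of all genes did, so these counts lay near the background. Rem2, an activity-regulated small GTPase that inhibits calcium channels, differed from TTX at 45 min by 0.56 ± 0.15 (SE, limma adjusted p = 0.487), with arrays above both other groups. Itpr2, a calcium release channel of the endoplasmic reticulum, differed by 0.57 ± 0.13 (0.353) and Atp2a3, a pump that fills this store, by 1.68 ± 0.39 (0.345), each without overlap.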

How the data were processed

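Per the file headers, each scanner file holds Cy3 spot intensities of an Agilent rat array (design 014879) from the scanner software Feature Extraction, version 9.5.3.1 (9.5 per the submitters' processing notes). The processed signal used here is the intensity that software gives after background subtraction and detrending, with no scaling between arrays, and the deposited table of values holds the same intensities (largest difference 0). Control spots (1639 of 45018) were left out, outlier spots (49 to 111 per array) were set to missing, and repeated spots of a probe were averaged. Probes were kept (30321 of 41012) where at least 1 group had them well above background on each of 3 arrays. The log2 signal minus each array's 75th percentile was fitted with limma 3.58.1 (R 4.3.3, package data.table, version 1.17.8), 9 arrays together, 25808 genes, 6 residual degrees of freedom, two-sided, Benjamini-Hochberg over all genes. The lists and the members were chosen with earlier results of these data known. Named are, per family and comparison, called genes, the 5 largest differences in each direction, genes whose arrays do not overlap or with an unadjusted p under 0.05, and a fixed list of common subunits. Kcnip3 of that list was not analysed here, and some listed genes, though kept in the fits and counts, are not reported here by name.

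Between 72.4 and 77.9% of probes stood well above background on an array, and the 75th percentile signal was 1455.8 to 2342.5. The TTX samples lay on slide 1 (replicate 1) and slide 2 (replicates 2 and 3), the W15 samples on slide 3 (replicates 1 and 2) and slide 1 (replicate 3), and the W45 samples on slide 1 (replicate 1) and slide 3 (replicates 2 and 3). Deviations of same-numbered samples from their group means correlated at 0.226 to 0.388 (TTX and W15), 0.122 to 0.367 (TTX and W45) and 0.0626 to 0.183 (W15 and W45). For samples of unlike number it was −0.38 to 0.0883, −0.258 to −0.0422 and −0.2 to 0.0214, values that centring on group means lowers. The numbers may therefore pair the TTX samples with the washed ones, a weak pairing that comes from the data and not from the labels. TTX and W45 replicates 1 also share slide 1. All 111 symbols are in RefSeq's gene list for GRCr8, which was used for names. The procedure was tested on simulated data. Alternatives were normexp background correction with an offset of 50, quantile or no scaling, no filter or a stricter filter on dim probes, the mean of a gene's probes, only the groups compared, a trended and robust spread, slide or replicate number as a block, single slides, each array left out, and, chosen after seeing the data, every probe by itself. Python 3.11.15 with pandas 2.3.3 and matplotlib 3.10.9 made the plots.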

Additional observations from a re-analysis of the deposited data

Results flagged for a closer look

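Values are given here for a probe that no comparison above uses for its gene, because a brighter probe stands for it, and whose arrays did not overlap at an unadjusted p under 0.05. The other probe of Kcnd3 gave a log2 difference of 1.05 for W45 against TTX and 1.01 for W45 against W15, where the brighter probe gave 0.20 and −0.19. It was well above background on 1 TTX, 2 W15 and 3 W45 arrays, with a mean of −6.81 on TTX and −5.76 on W45. It thus passed the filter only through W45, the group where it is high, so the filter favours this direction and the p gives no support to it.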

How the results depend on the processing

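The count of 0 called genes held for both families in every setting and comparison, except for Kcn genes at 45 min against TTX. There it was 1, Kcnf1, with probes above background on all arrays, with a trended and robust spread and with slide as a random block, and it ranged from 0 to 1 over the 9 fits without 1 array. Normexp background correction put the Kcn median at 0.29 at 15 min and −0.22 between the washed groups, and the Cacn median at 0.35 and −0.20, when the median of all genes was 0.21 and −0.19. Without scaling the Kcn medians were −0.13 and −0.19, and the Cacn medians −0.0672 and −0.20, at 15 and 45 min, beside −0.15 and −0.21 for all genes. The Cacn median at 15 min was 0.27 with slide as a fixed block, and between the washed groups it was 0.00716 within slide 1. The cause of these shifts was not tested. The replicate number as a block (replicate block) changed no call, and Kcnf1 at 45 min kept 1.50 with an adjusted p of 0.126. Of 1497 tested values of 74 single gene differences under the alternatives, 38 had the opposite sign, none of them called, and 5 passed the threshold, each of them Kcnf1 at 45 min. Of the 74 values within slide 1, with 1 array a group and no test, 18 had the opposite sign. At 15 min the sign turned for Cacna1d (0.12) with the mean of probes, for Cacna2d3 (0.00603) with slide as a fixed block, and with normexp for Cacna1c (0.0196), Cacna1d (0.0600), Cacna2d1 (0.0222) and Kcnc2 (0.67). At 45 min against TTX it turned with normexp for Kcnv1 (−0.0434), Kcnc2 (0.14), Cacnb1 (0.0145), Cacna2d2 (0.0848) and Cacna1h (0.0681), and without scaling for Kcnv1 (−0.0949), Kcnip4 (−0.0801), Cacna1c (−0.12), Cacna1g (−0.0924), Cacna2d1 (−0.0722) and Cacng3 (−0.0975). With slide as a fixed block it turned for Kcnj10 (−0.019), Kcnab3 (−0.0189), Cacna1b (0.071), Cacna1h (0.37) and Cacna2d2 (0.17), and with the mean of probes for Cacna1b (0.15). Between the washed groups it turned with normexp for Kcns2 (−0.0162) and Cacng6 (−0.33), and within slide 3 for Kcnj4 (−0.0184). Without single arrays the range over 9 fits held both signs at 15 min for Kcnc1 (−0.69 to 0.089), Cacna1c (−0.11 to 0.0575), Cacna1d (−0.15 to 0.11) and Cacna2d1 (−0.0326 to 0.00623). The same was seen at 45 min for Kcnq3 (−1.01 to 0.43), Cacna1h (−0.37 to 0.19), Cacna2d2 (−0.32 to 0.0618) and Cacnb1 (−0.33 to 0.0652), and between the washed groups for Kcnq3 (−1.11 to 0.33) and Kcnj4 (−0.0500 to 0.64). For Kcnf1 at 45 min these fits gave 1.27 to 1.68.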
